A study of Mus musculus with 7 samples.

Results

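The genes described here are 10 Fc receptors, activating receptors and signalling proteins of myeloid cells: Tyrobp, Fcer1g, Hcst, Fcgr1, Fcgr3, Fcgr4, Fcgr2b, Trem1, Trem2 and Syk. They were chosen by symbol, and all 10 were present among the 24421 genes of the count table. Polyadenylated RNA had been sequenced from 7 mouse tumours at week 4, each from its own mouse: 4 from mice that had received both anti-LAIR1 and anti-PD-1, and 3 control tumours from mice that had received anti-PD-1 and anti-KLH, an antibody to a foreign protein. All 7 mice thus received blockade of PD-1, an inhibitory receptor of T cells, and the comparison asks what blockade of LAIR1, a collagen-binding inhibitory receptor of leukocytes, added to it.

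The series text describes 344SQ lung cancer cells, from K-rasLA1/+p53R172H∆g/+ mice, grown under the skin of male and female 129/Sv mice aged 6 to 8 weeks, dosed with 10 mg/kg of anti-LAIR, 8 mg/kg of anti-PD-1, or both. It also describes KrasLSL-G12D/p53fl/fl mice, infected with adenovirus carrying Cre at 3 to 4 months of age, in which treatment started 2 months later. The labels do not say which of these models the 7 tumours came from, the sex and age of single mice, or the event from which weeks were counted. All anti-LAIR1 mice had names beginning WTSV, and control mice had names beginning LOHM or KWM, so whatever these prefixes stand for cannot be told apart from the treatment. Whole tumours also hold many cell types, and a larger number of cells of a type cannot be told apart from more RNA per cell.

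Fc receptors bind the constant part of antibodies and so link antibody-coated targets to phagocytes. The activating mouse receptors FcγRI, FcγRIII and FcγRIV, encoded by Fcgr1, Fcgr3 and Fcgr4, carry no signalling motif of their own and depend on the Fc receptor gamma chain encoded by Fcer1g, whose cytoplasmic tail holds an immunoreceptor tyrosine-based activation motif (ITAM). TREM1 and TREM2 pair in the same way with DAP12, the ITAM adaptor encoded by Tyrobp. Phosphorylated ITAMs recruit the kinase SYK. DAP10, encoded by Hcst, instead binds phosphoinositide 3-kinase and serves NKG2D in lymphocytes. FcγRIIB, encoded by Fcgr2b, is the inhibitory Fc receptor: its inhibitory motif (ITIM) recruits the phosphatase SHIP1, and LAIR1 itself signals through ITIMs.

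Of the 10 genes, 9 passed the filter on low counts, and 0 of these 9 passed edgeR's quasi-likelihood test at an adjusted p of 0.05, against 0% of the 13545 genes tested. The log2 fold change, anti-LAIR1 minus control, was positive for 8 of the 9, against 49.1% of all genes tested, and the median of the 9 was 0.34 where that of all genes was -0.0028. An unadjusted p under 0.05 with a positive fold change was reached by 2 of the 9, Fcer1g and Fcgr2b, against 3.51% of all genes, and by 0 with a negative one, against 1.63%. The same 2 genes were higher in every anti-LAIR1 tumour than in any control tumour, against 3.06% of all genes, and 0 of the 9 were lower in every one, against 2.51%. The number with an unadjusted p under 0.05 was 5 without anti-LAIR1 replicate 2, 4 without control replicate 3 and 3 without control replicate 1. It was also 3 with library totals as the scaling, without the filter or by limma-voom. With the level of pan-leukocyte or skeletal muscle markers as a covariate it was 1. The share of all genes was not computed for these settings, so a larger or smaller count cannot be read as a trait of these genes. The covariates were the mean log2 CPM of the markers tested. That of the pan-leukocyte markers was higher in every anti-LAIR1 tumour than in any control tumour. For muscle the summed CPM was higher in every one, but the mean log2 CPM is not given here. A fit with the pan-leukocyte covariate therefore cannot fully separate the marker level from the treatment. How far a fit with the muscle covariate separates them was not tested, nor was the source of a smaller fold change.

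**Figure D1:**
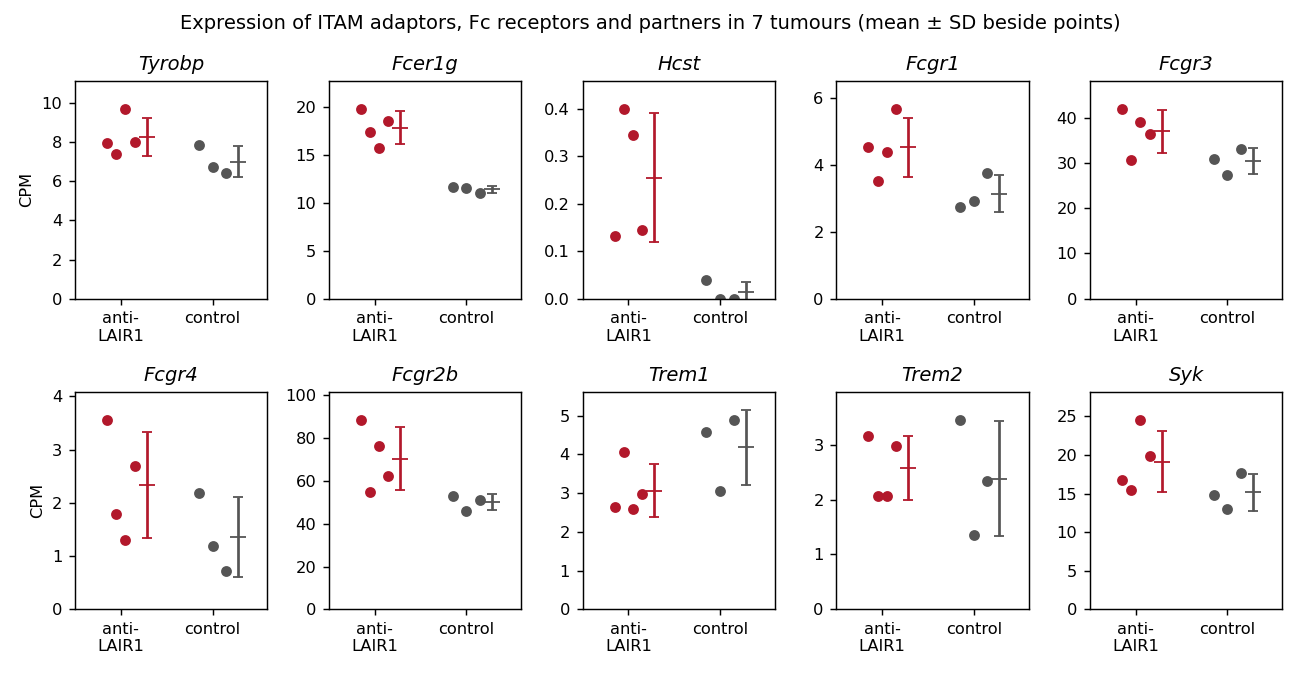
CPM (counts scaled to a common library total, vertical axis, from 0) of the 10 genes in 4 anti-LAIR1 tumours (red) and 3 control tumours (grey), with 1 point per tumour and the mean ± SD beside the points. For Fcer1g, Fcgr2b and Hcst all red points lie above all grey points, Hcst at only 0 to 6 counts per tumour, and Trem1 has its highest values in control tumours.

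The upstream sequences of 3 genes are shown because of how their levels varied between tumours, a choice made with the values known: Fcer1g separated the groups, Fcgr4 varied most within them of the genes tested, and Fcgr1 overlapped by a single pair of tumours. Not all of these traits were theirs alone: Fcgr2b and the barely detected Hcst also separated the groups, and Tyrobp also overlapped by a single pair. Each line gives the 250 bases before the start of transcription on the gene's own strand, from RefSeq on GRCm38.p6, in lower case. Capitals mark matches on either strand to TTCNNNGAA, the interferon gamma activated site, to GAAA followed by any 2 bases and GAAA again, a core of the interferon-stimulated response element (ISRE), and to GAGGAAG, a core bound by PU.1, the main transcription factor of macrophages.
Fcer1g, chr1:171234350-171234599, minus strand: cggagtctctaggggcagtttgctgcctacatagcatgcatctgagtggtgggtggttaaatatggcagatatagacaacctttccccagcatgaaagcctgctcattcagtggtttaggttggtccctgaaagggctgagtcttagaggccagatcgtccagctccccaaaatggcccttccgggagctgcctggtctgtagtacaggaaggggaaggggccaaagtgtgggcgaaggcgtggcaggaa
Fcgr1, chr3:96293970-96294219, minus strand: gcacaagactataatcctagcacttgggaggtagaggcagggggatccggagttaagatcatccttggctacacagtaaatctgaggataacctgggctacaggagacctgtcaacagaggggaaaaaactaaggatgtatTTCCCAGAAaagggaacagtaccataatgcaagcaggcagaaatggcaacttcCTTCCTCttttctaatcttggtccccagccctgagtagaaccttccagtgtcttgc
Fcgr4, chr1:171018676-171018925, plus strand: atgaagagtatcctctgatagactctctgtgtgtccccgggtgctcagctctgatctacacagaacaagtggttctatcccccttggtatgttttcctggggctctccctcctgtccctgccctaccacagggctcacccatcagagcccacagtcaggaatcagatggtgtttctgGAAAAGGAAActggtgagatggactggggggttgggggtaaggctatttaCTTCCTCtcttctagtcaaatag

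The Fcgr1 window held 1 match to TTCNNNGAA that began 109 bases before the start, and 1 match to GAGGAAG on the other strand that began 56 bases before it. The Fcgr4 window held 1 match to the ISRE core, beginning 73 bases before the start, and 1 to GAGGAAG on the other strand, beginning 23 bases before it. None of the capital stretches overlapped another, and the letters of none of the 3 motifs occurred in the Fcer1g window. Among windows not shown, that of Trem1, the gene with the lower mean, held 1 match to TTCNNNGAA. Those of Fcgr3 and Trem2 each held 1 match to GAGGAAG. The windows of Fcgr2b, Hcst and Syk held none of the 3 motifs. Over all 32851 windows of the same length in the RefSeq table, TTCNNNGAA was found in 7.02%, GAGGAAG in 10.6% and the ISRE core in 2.98%. A match describes letters in a window and does not show that a factor bound there.

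Among the adaptors, Fcer1g had the clearest difference between the groups. Its levels were 19.8, 17.4, 15.7 and 18.5 CPM in anti-LAIR1 replicates 1 to 4, against 11.6, 11.6 and 11.0 CPM in control replicates 1 to 3. The 3 control tumours lay close together, and the lowest anti-LAIR1 tumour stood above all of them. The means were 17.8 ± 1.72 CPM with anti-LAIR1 (SD, n = 4) and 11.4 ± 0.361 CPM in controls (SD, n = 3), so that the log2 fold change was 0.64 (SE 0.13, 95% interval from 0.35 to 0.93). By its p Fcer1g ranked 14 among the genes tested, with an edgeR adjusted p of 0.616. DESeq2 called it higher with an adjusted p of 0.0252, as it did 0.373% of 13924 genes (it called 0.0144% lower), and the limma-voom adjusted p was 0.355. Of the 9 genes tested, Fcer1g was the only one that DESeq2 called.

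Tyrobp had 7.97, 7.38, 9.67 and 7.99 CPM in anti-LAIR1 tumours, against 7.88, 6.73 and 6.41 CPM in control tumours, and the groups overlapped through control replicate 1 and anti-LAIR1 replicate 2. The log2 fold change was 0.23 (SE 0.17, edgeR adjusted p = 1.00), with an interval from -0.16 to 0.61. It was 0.14 without anti-LAIR1 replicate 3, 0.13 with libraries thinned to the smallest total and 0.12 with the muscle covariate. Without control replicate 1 it was 0.32, and with the pan-leukocyte covariate 0.28. The ratio of Fcer1g to Tyrobp, looked at after the values of both were seen and given without a test, was 2.48, 2.35, 1.63 and 2.32 in anti-LAIR1 tumours, against 1.48, 1.72 and 1.71 in control tumours. It was above every control in 3 of the 4 anti-LAIR1 tumours, and replicate 3, which had the lowest Fcer1g and the highest Tyrobp level of its group, lay among the controls.

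Hcst was close to the limit of detection. Its counts were 2, 6, 4 and 2 in anti-LAIR1 tumours, against 1, 0 and 0 in control tumours, and 3 counts are worth from 0.119 to 0.305 CPM in these libraries. Summed over the groups this was 14 counts with anti-LAIR1 against 1 in controls, a ratio per effective library size of 12.2 with an exact 95% counting interval from 1.86 to 516, which covers counting error only. In CPM the anti-LAIR1 tumours all lay above the control tumours, but at these few counts. The gene was below the filter and had no edgeR test. Hcst and Tyrobp lie end to end on chromosome 7, with 129 bases between their 3′ ends, and the sources used here do not say whether counting used strand. Klrk1, which encodes the DAP10 partner NKG2D, was also low, at 1.59 ± 1.30 CPM in anti-LAIR1 tumours and 0.402 ± 0.377 CPM in control tumours, with overlapping groups.

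The Fc gamma receptor genes were all higher on average with anti-LAIR1, and the inhibitory receptor was the only one of them whose groups did not overlap. Fcgr2b had 88.4, 54.9, 76.3 and 62.1 CPM in anti-LAIR1 tumours, against 53.1, 45.8 and 51.2 CPM in control tumours. The lowest anti-LAIR1 tumour, replicate 2, was close to the highest control, replicate 1. Means were 70.4 ± 14.9 CPM in anti-LAIR1 tumours (SD, n = 4) and 50.0 ± 3.81 CPM in control tumours (SD, n = 3), and the log2 fold change was 0.49 (SE 0.16, edgeR adjusted p = 0.868), with a 95% interval from 0.14 to 0.85. With the skeletal muscle marker level as a covariate the Fcgr2b log2 fold change was 0.18, and with the pan-leukocyte level it was 0.43.

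Fcgr3, the low-affinity activating receptor, had 41.8, 30.7, 39.0 and 36.3 CPM in anti-LAIR1 tumours, against 30.9, 27.2 and 33.1 CPM in control tumours. The overlap came from anti-LAIR1 replicate 2, which lay below control replicates 1 and 3. The Fcgr3 log2 fold change was 0.28 (SE 0.13, edgeR adjusted p = 0.968), 0.031 with the muscle covariate and 0.18 with the pan-leukocyte covariate. Fcgr2b and Fcgr3 lie near each other, with Fcgr4 between them, and have closely related extracellular parts. Of the 100-base windows of their transcripts, 2.12% for Fcgr2b and 2.7% for Fcgr3 occurred exactly in transcripts of another gene. For Fcgr3 this other gene was Fcgr2b alone. No such window was shared by the other 8 genes.

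Fcgr1, the high-affinity receptor, had 4.54, 3.53, 4.40 and 5.67 CPM in anti-LAIR1 tumours, against 2.73, 2.92 and 3.77 CPM in control tumours. Its groups overlapped only because control replicate 3 exceeded anti-LAIR1 replicate 2, and the log2 fold change was 0.54 with a 95% interval from -0.018 to 1.10 (edgeR adjusted p = 0.970). It was 0.16 with the muscle covariate and 0.21 with the pan-leukocyte covariate. Fcgr4, a receptor of intermediate affinity, had 3.56, 1.80, 1.30 and 2.69 CPM in anti-LAIR1 tumours, against 2.18, 1.20 and 0.713 CPM in control tumours. Both groups spread widely, and with 7 to 55 counts per library the interval of its log2 fold change of 0.71 ran from -0.33 to 1.76 (edgeR adjusted p = 1.00). The Fcgr4 value was 1.26 without control replicate 1, 0.45 without control replicate 3, 0.44 without anti-LAIR1 replicate 1, 0.45 with the muscle covariate and -0.28 with the pan-leukocyte covariate.

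**Figure D2:**
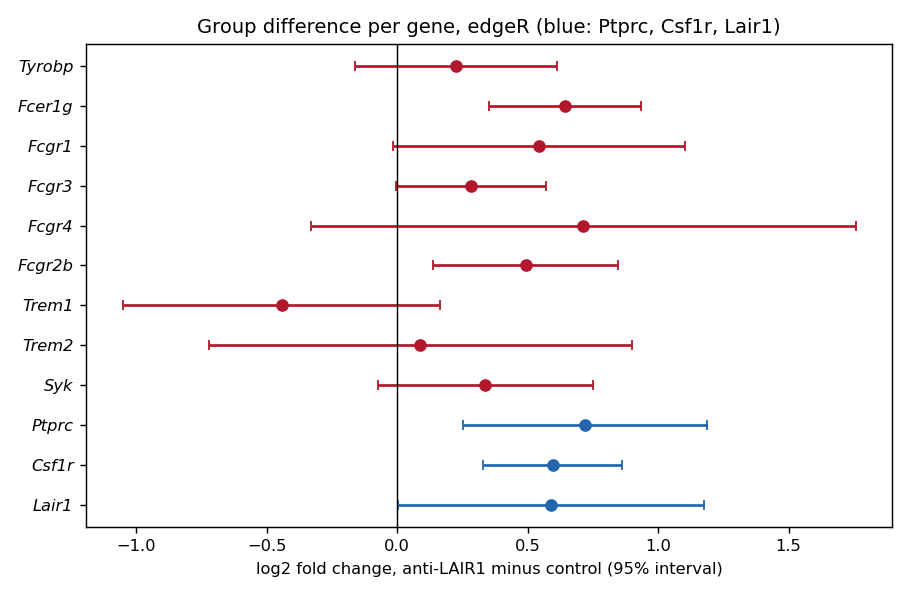
Log2 fold change (horizontal axis, anti-LAIR1 minus control, points) with 95% intervals from edgeR for the 9 genes tested (red) and for Ptprc, Csf1r and Lair1 (blue). Of the 9, the intervals of Fcer1g and Fcgr2b lie above 0, and Trem1 has a negative value.

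Ratios within a tumour compare activating with inhibitory Fc receptors without depending on library scaling. The log2 ratio of Fcgr3 to Fcgr2b was -1.08, -0.84, -0.97 and -0.77 in anti-LAIR1 tumours, against -0.78, -0.75 and -0.63 in control tumours, a difference of -0.19. Anti-LAIR1 replicate 4 lay within the control values and the other 3 tumours below them (exact two-sided permutation test, p = 0.114, 0.286 after adjustment over 4 ratios). The mean log2 ratio of Fcgr1 to Fcgr2b was -3.91 ± 0.353 in anti-LAIR1 tumours (SD, n = 4) and -3.95 ± 0.251 in control tumours (SD, n = 3). That of Fcgr4 to Fcgr2b was -4.91 ± 0.578 in anti-LAIR1 tumours and -5.19 ± 0.701 in control tumours. These 2 ratios differed by 0.036 and 0.28 (exact permutation test, two-sided, p = 0.971 and 0.543, adjusted p = 0.971 and 0.724). The smallest p that 4 against 3 tumours allow is 0.0286, so a single ratio at that p cannot pass after adjustment over the 4.

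Of the TREM receptors, Trem1 had a lower mean with anti-LAIR1 and Trem2 a nearly equal one, and neither passed the test. Trem1, which amplifies inflammatory responses of neutrophils and monocytes, had 2.63, 4.06, 2.59 and 2.98 CPM in anti-LAIR1 tumours, against 4.59, 3.07 and 4.89 CPM in control tumours. It was the only 1 of the 9 genes with a lower mean in anti-LAIR1 tumours, 3.07 ± 0.684 against 4.18 ± 0.977 CPM, and control replicate 2 lay inside the anti-LAIR1 values. The log2 fold change of -0.44 had a 95% interval from -1.05 to 0.17 (edgeR adjusted p = 0.993). It was negative in all 16 alternative settings, at -0.11 with the muscle covariate, -0.40 with the pan-leukocyte covariate and -0.21 by limma-voom. Trem2, a lipid-sensing receptor of macrophages, had 3.16, 2.06, 2.07 and 2.98 CPM in anti-LAIR1 tumours, against 3.44, 1.35 and 2.34 CPM in control tumours. The control values enclosed all 4 anti-LAIR1 values, and its log2 fold change, 0.089 with SE 0.36 and an edgeR adjusted p of 1.00, took a negative sign in 4 of the 16 settings. It was 0.49 without control replicate 1 and -0.19 without control replicate 2. The log2 ratio of Trem2 to Trem1 averaged -0.25 ± 0.511 in anti-LAIR1 tumours and -0.84 ± 0.386 in control tumours (exact permutation test, two-sided, p = 0.143, adjusted p = 0.286).

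Neutrophil markers are given beside Trem1 because neutrophils express it. Of 14 markers 13 were in the table and 8 were tested, 2 of them with a positive fold change (49.1% of all genes) and 6 with a negative one. At an unadjusted p under 0.05, 0 were higher (3.51% of all genes) and 0 were lower (1.63%). Their summed level ran from 31.3 to 135 CPM in anti-LAIR1 tumours and from 16.8 to 136 CPM in control tumours. Mmp9, which other cells also make, had the highest level of them. S100a8 lay at or below 0.345 CPM in anti-LAIR1 tumours and at or below 0.436 CPM in control tumours, and Camp was at 0 in all 7. S100a9 reached 0.399 CPM in anti-LAIR1 tumours and 2.14 CPM in control replicate 3. Other markers had higher levels. Csf3r averaged 6.06 ± 0.693 CPM in anti-LAIR1 tumours and 4.12 ± 2.07 CPM in control tumours. Lcn2 ran from 3.34 to 10.7 CPM in anti-LAIR1 tumours and from 1.19 to 12.0 CPM in control tumours. The part of neutrophils in the Trem1 values was not tested.

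Syk had 16.8, 15.5, 24.5 and 19.8 CPM in anti-LAIR1 tumours, against 14.8, 13.0 and 17.7 CPM in control tumours. Control replicate 3 lay above 2 anti-LAIR1 tumours, and the log2 fold change was 0.34 (SE 0.18, edgeR adjusted p = 0.980). It was 0.20 without anti-LAIR1 replicate 3, 0.45 without control replicate 3, 0.048 with the muscle covariate and 0.41 with the pan-leukocyte covariate. Anti-LAIR1 replicate 3 had the highest level of both Syk and Tyrobp among the 7 tumours, and the lowest Fcer1g level of its group.

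Per length of the principal GENCODE transcript, the order of levels was similar in both groups. In anti-LAIR1 tumours Fcgr3 stood at 27.4 ± 3.51, Fcer1g at 26.5 ± 2.55, Fcgr2b at 19.9 ± 4.20 and Tyrobp at 14.6 ± 1.75 CPM per kb. In control tumours the same genes stood at 22.6 ± 2.20, 16.9 ± 0.535, 14.1 ± 1.08 and 12.4 ± 1.37 CPM per kb. These 4 formed a high tier in each tumour, and neighbours in the order overlapped, except that in control tumours Fcer1g overlapped neither Fcgr3 nor Fcgr2b. Syk followed at 3.57 ± 0.748 CPM per kb in anti-LAIR1 tumours and 2.83 ± 0.442 in control tumours. Trem2, Fcgr4, Fcgr1 and Trem1 averaged from 1.02 to 2.36 CPM per kb with anti-LAIR1 and from 1.08 to 2.19 CPM per kb in controls. In each group they overlapped their neighbours in the order, except that Fcgr1 and Trem1 just failed to meet in anti-LAIR1 tumours. Hcst was lowest, at 0.578 ± 0.310 CPM per kb in anti-LAIR1 tumours and 0.0299 ± 0.0517 in control tumours.

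**Figure D3:**
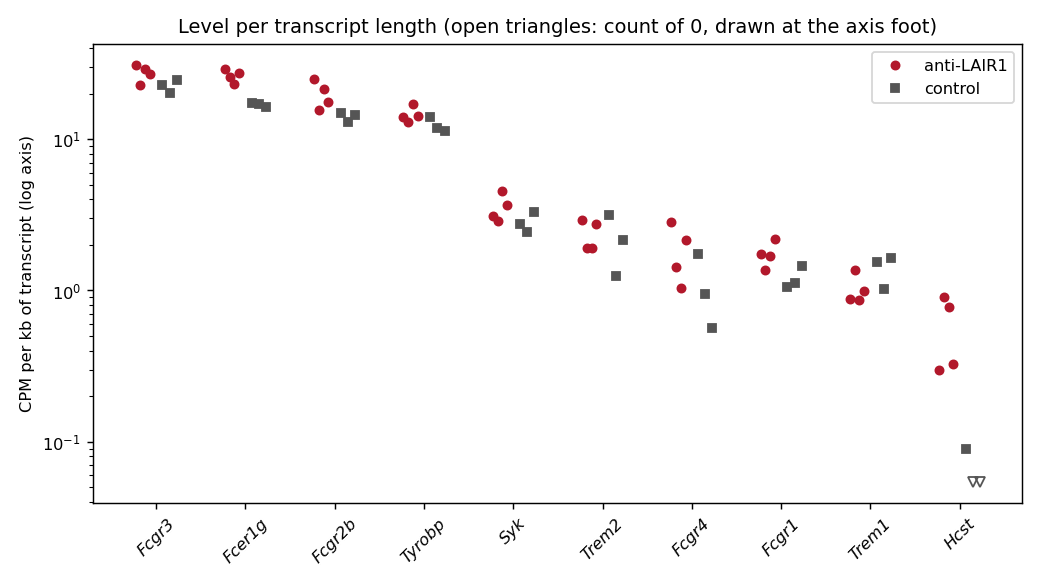
CPM per kb of transcript (vertical log axis) for the 10 genes, in order of their anti-LAIR1 mean, with 1 point per tumour, anti-LAIR1 (red circles) left of control (grey squares). Fcgr3, Fcer1g, Fcgr2b and Tyrobp lie above 10 in all 7 tumours, and Hcst below 1.

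Several of the genes are neighbours in the genome. Fcgr2b (170960558 to 170976071), Fcgr4 (171018926 to 171029761), Fcgr3 (171051169 to 171065915) and Fcer1g (171229572 to 171234349) lie within 273.8 kb of chromosome 1 on GRCm38, the assembly mm10 names. Fcgr1 is on chromosome 3 (96282909 to 96293969) and Syk on chromosome 13 (52582610 to 52648792). Trem1 (48232713 to 48246927) and Trem2 (48346401 to 48352276) lie 99.5 kb apart on chromosome 17, and Tyrobp (30413782 to 30417582) and Hcst (30417712 to 30419854) are the pair on chromosome 7.

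Leukocyte and macrophage markers also had positive fold changes, without passing edgeR's adjusted threshold. All 18 pan-leukocyte markers tested had a positive fold change (49.1% of all genes), with a median of 0.51. So did all 20 macrophage and monocyte markers, with a median of 0.52. These medians stand beside 0.34 for the 9 genes. The mean log2 CPM of either list was higher in every anti-LAIR1 tumour than in any control tumour (exact permutation test, two-sided, p = 0.0571 for each), while the summed CPM of the macrophage markers overlapped, from 738 to 1014 in anti-LAIR1 tumours and from 571 to 776 in control tumours. Ptprc, the pan-leukocyte phosphatase CD45, had 48.2, 34.1, 31.3 and 56.7 CPM in anti-LAIR1 tumours, against 28.3, 24.2 and 24.9 CPM in control tumours. Csf1r, the macrophage growth factor receptor, which also signals partly through DAP12, had 59.4, 63.1, 58.5 and 76.2 CPM in anti-LAIR1 tumours, against 45.8, 38.5 and 43.3 CPM in control tumours. Both separated the groups. DESeq2 called Csf1r higher (adjusted p = 0.00953), and edgeR gave it an adjusted p of 0.608. Ms4a7, a macrophage membrane protein, followed among the macrophage markers with a log2 fold change of 1.18 (DESeq2 adjusted p = 0.0252). The actin regulators Lcp1 and Nckap1l had the smallest p among pan-leukocyte markers, with log2 fold changes of 0.50 and 0.52. DESeq2 called Lcp1 (adjusted p = 0.0253) and not Nckap1l (adjusted p = 0.0592). In both lists 0 genes passed edgeR's adjusted threshold.

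Set against these markers, 0 of the 9 genes passed the test of a difference, which no single gene could have passed, as given below. After subtraction of the mean log2 CPM of the 20 macrophage and monocyte markers, Fcer1g was at -0.27 ± 0.193 in anti-LAIR1 tumours (SD, n = 4) and -0.40 ± 0.112 in control tumours (SD, n = 3), a difference of 0.13. Tyrobp differed by -0.28, Fcgr3 by -0.23, Fcgr2b by -0.035, Fcgr1 by 0.00043 and Fcgr4 by 0.24 on the same scale. Trem1 had the largest shift, at -2.78 ± 0.458 in anti-LAIR1 tumours and -1.85 ± 0.292 in control tumours, with overlapping groups (exact permutation test, two-sided, p = 0.0857). Relative to the 18 pan-leukocyte markers the Trem1 difference was -0.87 and that of Fcer1g 0.19. Over the 18 pairs of gene and marker list, 0 passed an adjusted p of 0.05 in the exact permutation test, the smallest adjusted p was 0.729, and 0 had an unadjusted p under 0.05. The smallest p that the 35 splits allow is 0.0286, and a single pair at that p cannot pass after adjustment over 18 pairs. The count of 0 therefore cannot tell whether a single gene differed. With the marker median in place of the mean, the Fcer1g difference from macrophage markers was 0.28 (exact permutation test, two-sided, p = 0.0286, adjusted p = 0.514), and without anti-LAIR1 replicate 2 it was 0.054. On the same scale Fcgr2b ran from -0.13 to 0.12, Fcgr1 from -0.15 to 0.15 and Fcgr4 from -0.089 to 0.54 over the alternatives, so the signs of these 3 differences depend on the setting.

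**Figure D4:**
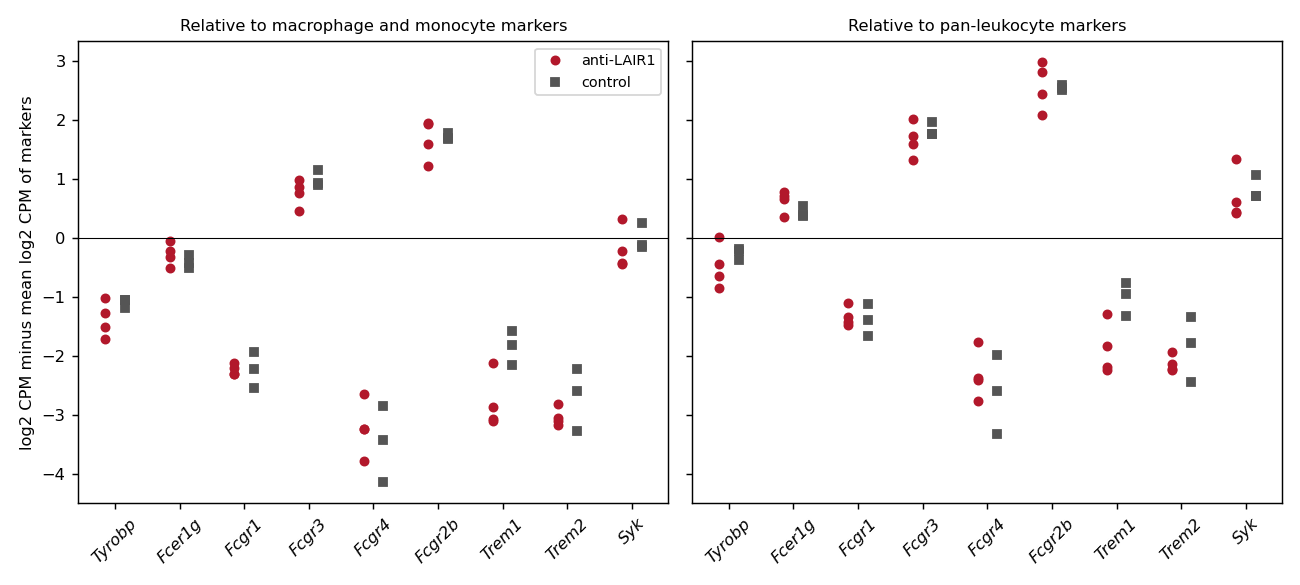
Log2 CPM of each gene minus the mean log2 CPM (vertical axis) of macrophage and monocyte markers (left) and pan-leukocyte markers (right), with 1 point per tumour for anti-LAIR1 (red circles) and control (grey squares). The groups overlap for all 9 genes on both scales, and Trem1 shows the widest gap between group means.

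Downstream of the ITAM, kinases, adaptors and other effectors had mostly small positive fold changes. Of 31 tested, 24 were positive (49.1% of all genes), with a median of 0.17. An unadjusted p under 0.05 was reached by 7 of them, all higher (3.51% of all genes), 0 passed edgeR's adjusted threshold, and 6 were higher without overlap (3.06% of all genes). The smallest p belonged to Pik3ap1, an adaptor that links receptors to phosphoinositide 3-kinase, at 9.01 ± 1.84 CPM in anti-LAIR1 tumours and 6.07 ± 0.529 CPM in control tumours (log2 fold change 0.57), and to Vav1, a guanine nucleotide exchange factor downstream of SYK, at 7.91 ± 2.13 CPM in anti-LAIR1 tumours and 5.05 ± 0.719 CPM in control tumours (0.66). The edgeR adjusted p was 0.933 for both. The Src family kinase Lyn, which phosphorylates ITAMs and ITIMs, differed by 0.082 on the log2 scale, and Plcg2, the phospholipase downstream of SYK, by -0.066.

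A list of phosphatases and DOK adaptor proteins linked to this signalling had 10 genes tested, 8 of them positive (49.1% of all genes), with a median of 0.22 and 0 past the adjusted threshold. At an unadjusted p under 0.05, 3 phosphatase genes were higher (3.51% of all genes), namely Ptprj, Ptpn6 and Ubash3b. By the same measure 1 gene was lower (1.63% of all genes), the adaptor gene Dok1. The groups did not overlap for 4 genes that were higher (3.06% of all genes), which were these 3 and Inpp5d, the gene of SHIP1, and for 2 that were lower (2.51% of all genes). The lower ones were Dok1, at 11.4 ± 0.719 CPM in anti-LAIR1 tumours and 14.2 ± 1.22 CPM in control tumours, and Ptpn11, which encodes the phosphatase SHP-2, at 164 ± 4.99 CPM in anti-LAIR1 tumours and 179 ± 5.80 CPM in control tumours. Ptprj, the receptor phosphatase CD148, averaged 124 ± 10.3 CPM in anti-LAIR1 tumours and 102 ± 6.75 CPM in control tumours. Ptpn6, which encodes the ITIM-binding phosphatase SHP-1, averaged 12.1 ± 3.54 CPM in anti-LAIR1 tumours and 7.68 ± 0.939 CPM in control tumours, a log2 fold change of 0.67 (edgeR adjusted p = 0.932). Lair1, the ITIM receptor blocked in the treated mice, had 8.82, 8.05, 6.13 and 10.4 CPM in anti-LAIR1 tumours, against 7.60, 4.41 and 4.38 CPM in control tumours, and the groups overlapped through control replicate 1.

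Of 34 other receptors that signal through these adaptors or to SYK, 17 were tested, 12 with a positive fold change (49.1% of all genes) and a median of 0.29. An unadjusted p under 0.05 was reached by 5, all higher (3.51% of all genes), and 0 passed edgeR's adjusted threshold. Besides Csf1r, the smallest p was that of Siglec1, a sialic acid receptor of macrophages, at 23.9 ± 4.73 CPM in anti-LAIR1 tumours and 13.4 ± 4.97 CPM in control tumours, with overlapping groups (edgeR adjusted p = 0.868). Clec7a, the beta-glucan receptor Dectin-1, which reaches SYK through a motif in its own tail and not through these adaptors, averaged 19.7 ± 8.21 CPM in anti-LAIR1 tumours and 10.8 ± 2.22 CPM in control tumours. Clec4d, Clec4e and Clec5a, further C-type lectins of myeloid cells, had log2 fold changes of -0.31, -0.22 and -0.16. Fcer1a and Ms4a2, the other chains of the mast cell IgE receptor that uses the gamma chain, were below the filter.

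Among 11 other Fc receptor genes 4 were tested. Fcgrt, the neonatal Fc receptor that recycles IgG, had 17.6, 17.3, 24.5 and 21.9 CPM in anti-LAIR1 tumours, against 13.8, 12.9 and 14.8 CPM in control tumours, and the groups did not overlap (log2 fold change 0.55, edgeR adjusted p = 0.736). Fcrls, an Fc receptor-like gene, averaged 2.48 ± 1.67 CPM in anti-LAIR1 tumours and 0.795 ± 0.547 CPM in control tumours, with overlapping groups. Genes linked to Trem2 in lipid-laden macrophages had a median of 0.16, with 14 of 19 positive (49.1% of all genes) and 2 higher at an unadjusted p under 0.05 (3.51% of all genes). These were Itgax, the integrin CD11c, at 14.9 ± 3.87 CPM in anti-LAIR1 tumours and 8.61 ± 0.696 CPM in control tumours (edgeR adjusted p = 0.690), and Lipa, lysosomal acid lipase, at 108 ± 13.9 CPM in anti-LAIR1 tumours and 88.6 ± 12.9 CPM in control tumours (edgeR adjusted p = 0.967). Apoe, a lipid ligand of TREM2, averaged 75.9 ± 17.0 CPM in anti-LAIR1 tumours and 57.8 ± 11.0 CPM in control tumours, and Spp1 and Gpnmb differed by -0.24 and -0.058 on the log2 scale.

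**Figure D5:**
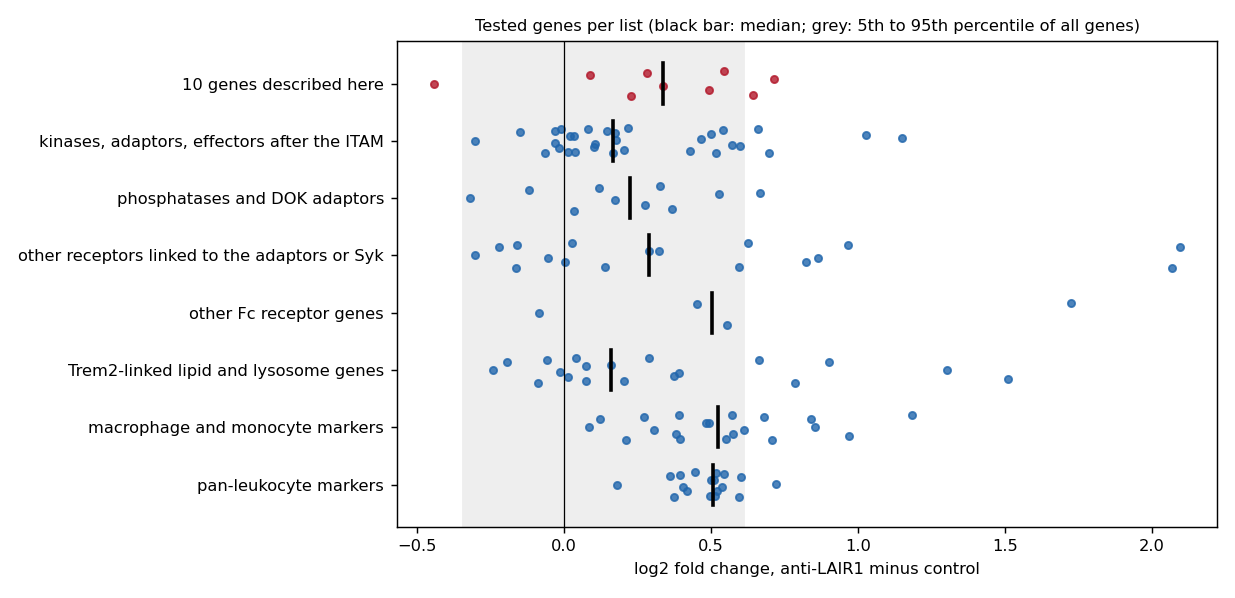
Log2 fold change (horizontal axis, anti-LAIR1 minus control) of each gene tested, for the 10 genes described here (red) and 7 related lists (blue), with black bars at list medians and grey from the 5th to the 95th percentile of all genes tested. The medians lie between 0.16 for the Trem2-linked genes and 0.52 for the macrophage and monocyte markers.

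By likeness over the 7 tumours (Pearson r of log2 CPM, the 2 highest of 12227 candidate genes, a description for which no test was made), Fcgr4 was closest to Trim21 (r = 0.995), a cytosolic antibody receptor that is induced by interferon, and to Ifi47 (r = 0.988), an interferon-inducible GTPase. Fcer1g was closest to Mx1 (r = 0.982), an interferon-induced antiviral gene, and to Krtcap2 (r = 0.976). Fcgr1 was closest to Arhgap9 (r = 0.983) and Cotl1 (r = 0.973), Fcgr2b to Lgals2 (r = 0.981) and Vwa9 (r = 0.978), and Fcgr3 to Rab3b (r = 0.989) and Prdx1 (r = 0.963). The closest genes were Pdcd5 and Plin2 for Tyrobp (0.979 and 0.964), Mrgbp and Clasrp for Trem1 (0.969 and 0.965), Zscan22 and Klhl18 for Trem2 (0.978 and 0.973), and Ptgds and Dqx1 for Syk (0.958 and 0.947). The points share their libraries and the groups' differences.

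Other cell types moved with the groups to different degrees, and their part in the values above was not tested beyond the covariates named. Summed skeletal muscle markers ran from 16.0 to 127 CPM in anti-LAIR1 tumours and from 11.2 to 15.2 CPM in control tumours. Summed keratinocyte markers ran from 14.9 to 25.8 CPM in anti-LAIR1 tumours and were 36.6, 25.9 and 134 CPM in control replicates 1 to 3. T cell markers summed to between 8.38 and 39.4 CPM with anti-LAIR1 and between 4.64 and 15.8 CPM in controls. NK cell markers summed to between 6.56 and 17.1 CPM with anti-LAIR1 and between 4.07 and 7.32 CPM in controls, with Ncr1, the defining NK receptor, at or below 0.218 CPM. Mast cell and basophil markers, whose cells also use the gamma chain, summed to between 133 and 238 CPM with anti-LAIR1 and between 138 and 250 CPM in controls. Mcpt8 had the highest level in that sum and a log2 fold change of -0.52, whereas 7 of the 9 markers tested were positive (49.1% of all genes), with a median of 0.68. Kit, at 0.81, and Cma1, at 2.20 ± 0.759 CPM in anti-LAIR1 tumours and 0.818 ± 0.746 CPM in control tumours, had positive fold changes with an unadjusted p under 0.05, and 0 passed the adjusted threshold. Dendritic cell markers lay between 180 and 235 CPM with anti-LAIR1 and between 219 and 240 CPM in controls. Fscn1 supplied most of this, at 151 to 225 CPM with anti-LAIR1 and 211 to 233 CPM in controls, and the other 3 markers tested had positive fold changes. B and plasma cell markers did not exceed 6.68 CPM in any anti-LAIR1 tumour or 1.22 CPM in any control tumour. Adipocyte markers lay between 8.49 and 138 CPM with anti-LAIR1 and between 8.08 and 28.6 CPM in controls. Epithelial tumour cell markers were high, between 4986 and 6008 CPM with anti-LAIR1 and between 4937 and 6024 CPM in controls, in all 7 tumours of the labelled tissue. Total counts ran from 11480651 to 15347403 with anti-LAIR1 and from 9879762 to 26255727 in controls.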

How the data were processed

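Per the labels' protocols, tumour RNA was extracted with Trizol, cleaned on columns, made into directional mRNA libraries and read from a single end over 100 bases. The authors deposited raw read counts per gene symbol. The tools they used were STAR 2.7.6, Trim Galore, edgeR 3.40.1 and featureCounts 2.0.1 with mm10, per the submitters' processing notes. The sources used here do not give the annotation, strand setting or treatment of multiply matching reads, so counts of related or overlapping genes are uncertain.

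The analysis used edgeR 4.0.16 in R 4.3.3: filterByExpr at a minimum count of 10, TMM scaling, and a robust quasi-likelihood test on all 7 libraries without covariates. P-values were adjusted by the Benjamini-Hochberg method over all genes tested. CPM used TMM-scaled totals, and log2 CPM a prior count of 2. SEs are the fold change divided by the root of the F statistic, and intervals use its t distribution. DESeq2 1.42.0 and limma 3.58.1 were alternatives. The fit was tested on simulated data. Ratios and marker-relative values were tested by exact permutation over 35 splits. P-values of the fits set the difference between the groups against the spread between tumours within a group. Those of the permutation test set it against the differences in all 35 splits. Neither can separate the treatment from whatever the mouse name prefixes stand for.

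The 10 genes and all lists were chosen with earlier results of these data known. Besides the 10 genes, Ptprc, Csf1r and Lair1, the text names the 2 genes of each pathway list with the smallest p and the 2 genes most alike each tested gene. Klrk1, Lyn, Plcg2, Clec7a, Clec4d, Clec4e, Clec5a, Apoe, Spp1, Gpnmb, Fcer1a, Ms4a2, Ncr1, S100a8, S100a9, Csf3r, Lcn2, Mmp9, Ubash3b, Inpp5d, Dok1, Ptpn11, Mcpt8, Kit, Cma1, Camp and Fscn1 were added after their values were seen. Sts1, Sirpb1c, Cd300c2 and Ly6g had no row under these symbols. Transcript lengths are of the longest APPRIS principal transcript in GENCODE M21. Coordinates are from RefSeq on GRCm38.p6, counted from 1. Figures were drawn with matplotlib 3.10.9.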

Additional observations from a re-analysis of the deposited data

Results flagged for a closer look

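Among the gene levels, ratios and marker sums of the 4 anti-LAIR1 tumours, 1 value stood apart from the other 3 by Dixon's criterion, which chance meets in about 1 in 20 groups. Many items were screened without adjustment, so chance alone can give 1 such value. The 3 control tumours were not screened. The summed adipocyte markers were 138 CPM in anti-LAIR1 replicate 2, where the other 3 anti-LAIR1 tumours lay between 8.49 and 16.1 CPM and the control tumours between 8.08 and 28.6 CPM. The same tumour had the lowest Fcgr1, Fcgr2b, Fcgr3, Tyrobp and Syk levels of its group. It also had the lowest summed skeletal muscle markers of its group, at 16.0 CPM. Anti-LAIR1 replicates 1, 3 and 4 had 127, 91.0 and 124 CPM of these markers, and control tumours 11.2 to 15.2 CPM. The part of adipose tissue in the gene levels was not tested, and that of muscle was not tested beyond the covariate.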

How the results depend on the processing

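The alternatives changed the scaling, the filter on low counts, the test or the depth (thinning to the smallest total), added the pan-leukocyte or muscle level as a covariate, or left out each library. For ratios and marker-relative values the prior count and the use of the marker median were also changed. The number of genes called was 0 by edgeR and limma-voom, 54 by DESeq2, and from 0 to 3 without single libraries (3 without anti-LAIR1 replicate 2). An unadjusted p under 0.05 was given by edgeR to 476 genes that were higher and 221 that were lower. The Fcer1g log2 fold change kept its sign, between 0.48 and 0.70, with an adjusted p from 0.0252 (DESeq2) to 1.00. Fcgr2b lay between 0.18 and 0.60, Fcgr1 between 0.16 and 0.68, Fcgr3 between 0.031 and 0.36, Tyrobp between 0.12 and 0.32, Syk between 0.048 and 0.45, and Trem1 between -0.62 and -0.11. Trem2 ran from -0.58 to 0.49 and Fcgr4 from -0.28 to 1.26, with the cause not tested. Without single libraries the Fcgr1 to Fcgr2b difference ran from -0.13 to 0.15 and that of Fcgr4 to Fcgr2b from -0.087 to 0.60. No ratio or marker-relative value was called in any setting. The permutation test cannot reach p = 0.05 once a tumour is left out, and with all 7 tumours a single value at its smallest p cannot pass after adjustment. By the length of all annotated exons Trem2 stood at 0.519 CPM per kb in anti-LAIR1 tumours and 0.481 in control tumours, below Trem1, and Tyrobp stood above Fcgr2b. Depth limits genes with few counts: Hcst had 0 to 6 and Fcgr4 7 to 55 per library. No paired analysis was possible because the labels give the mice no shared replicate numbers.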
